A study of Mus musculus with 12 samples.

Results

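Bone marrow-derived macrophages (BMMs) that overexpress miR-182 were compared with their Control at baseline, in 4 of the 12 RNA-seq libraries of the series. The 4 libraries were chosen by their labels, as Control and Mir182mTg cells without RANKL, 2 replicates of each. The study asked how miR-182 acts in osteoclast precursors, and its other 8 libraries compare WT with Mir182ΔM/ΔM cells, which lack miR-182 in myeloid cells.

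All mice were C57BL/6 and both groups carry LysMcre, a Cre recombinase under the myeloid lysozyme M promoter. Control cells came from LysMcre(+) littermates. Mir182mTg cells came from LSL-Mir182 LysMcre(+) mice, in which a Mir182 transgene in the Rosa26 locus stands behind a STOP cassette flanked by loxP sites, so that it is expressed only after Cre has acted. Bone marrow cells of both groups were grown for 3 days with M-CSF, the growth factor of macrophages, and their stimulation label is none, that is, no RANKL, the cytokine that drives osteoclast differentiation. The treatment protocol in the labels names a RANKL treatment for all samples alike, and the stimulation label was followed. The ages of the mice and whether marrow was pooled are not given in the sources used here. Since Cre acts in macrophages and granulocytes alike, the model is one of the myeloid lineage and not of a single cell type.

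A microRNA is a short RNA that guides the Argonaute complex to messenger RNAs, mostly through pairing of its seed with the 3′ UTR, and lowers their stability and translation. Type I interferon, which macrophages secrete at a low tonic level, signals through transcription factors of the STAT and IRF families to a broad set of antiviral genes and is a known brake on osteoclast formation. The mature miR-182 of the mouse, from RefSeq (GRCm38.p6, chr6:30165962-30165986, minus strand), is printed with its seed, bases 2 to 8, in capitals, because the site classes described further on are built on it.
mmu-miR-182-5p: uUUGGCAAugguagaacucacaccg

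The libraries held between 26459982 and 33050619 reads on genes, so that 1 read is worth 0.0303 to 0.0378 CPM, the counts scaled to the total of a library. Replicate 1 is labelled polyA RNA and replicate 2 total RNA, and the submitters' processing notes name different aligners for them, so the replicate number was kept as a block in the test. Rn45s, the ribosomal RNA precursor, moved with it, at 989 and 854 CPM in replicate 1 and 15399.9 and 11571 CPM in replicate 2. The differences between replicates 2 and 1 in Control and in Mir182mTg correlated across genes with a Pearson r of 0.728, a description over 12081 genes that are not independent. With 2 samples a group and nothing in the labels on separate animals, p-values measure the spread between these samples only.

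The transgene could be read in the libraries. Reads on Mir182, whose counted feature is the hairpin of 75 bases, were 0 and 0 in Control and 79 and 123 in Mir182mTg. This is at least 63.8-fold higher, with Control set at a floor of 3 reads over both libraries, and the floor covers counting error only. These reads come from the primary or precursor transcript, and the mature miRNA was not measured here. Gt(ROSA)26Sor, the non-coding transcript of the locus that holds the transgene, was at 5.75 and 7.94 CPM in Control and at 14.3 and 18.1 CPM in Mir182mTg. Both Mir182mTg libraries were higher than both Control libraries, with a log2 fold change of 1.24 ± 0.091 (SE, adjusted p = 1.04e-07, edgeR quasi-likelihood test). Lyz2, the gene whose promoter drives Cre, was at 6199 ± 589 CPM in Control and 6699.8 ± 512 CPM in Mir182mTg (SD, n = 2), a log2 fold change of 0.10 that stayed under the fold threshold.

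Overexpression of miR-182 went with changes in both directions and of modest size. Of 12081 genes tested, 401 were higher and 371 lower in Mir182mTg at an adjusted p under 0.05 and a fold of at least 1.2, which together is 6.39% of the genes tested, 3.32% higher and 3.07% lower. Genes past both thresholds are written as called. The median log2 fold change of the called genes was 0.50 among the higher and -0.46 among the lower, and only 74 higher and 51 lower genes moved at least 2-fold. The replicate pairs had the same sign in 771 of the 772 called genes, which the blocked test largely fixes, and in 64.7% of the genes not called. The groups did not overlap in 386 of the 401 higher and 335 of the 371 lower genes, so a lack of overlap in a called gene named below is no separate result. The calls rest on the replicate block, since the same test without it called 12 higher and 19 lower genes, and DESeq2 with the block called 146 and 168. Bulk RNA cannot tell apart fewer cells of a type and less RNA per cell.

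**Figure D1:**
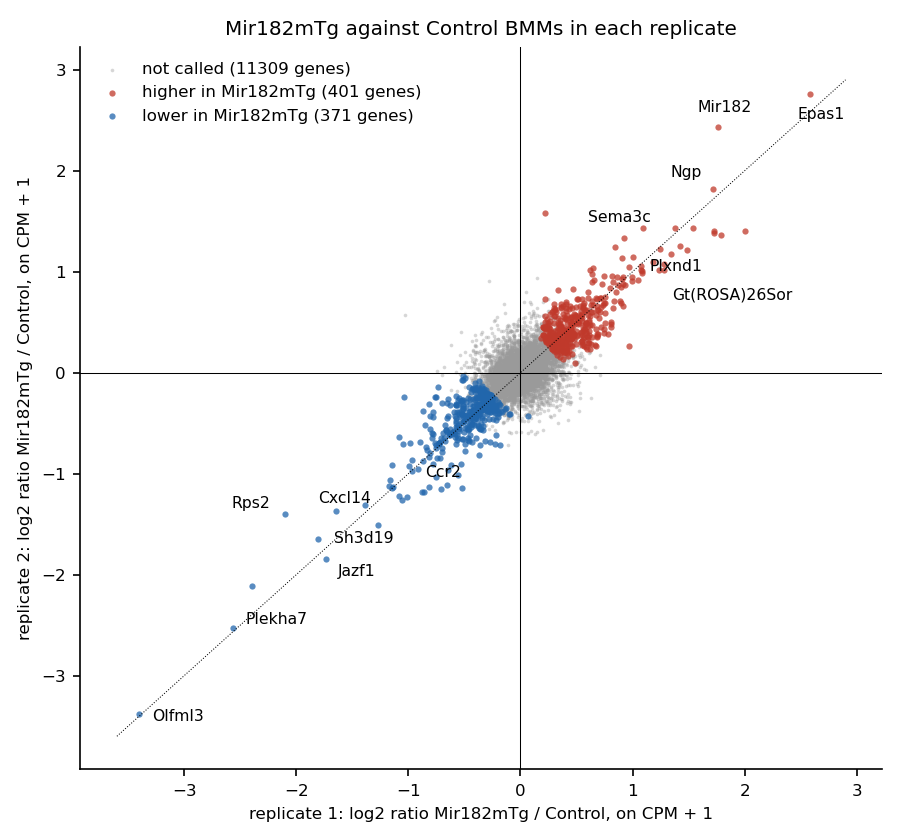
Log2 ratio of Mir182mTg to Control in replicate 1 (x axis) and in replicate 2 (y axis), on CPM with 1 added, each point 1 of 12081 genes; red points are the 401 called higher, blue points the 371 called lower, grey points the rest, and the dotted line marks equal ratios. The called genes lie along that line in both directions, with Epas1 at the upper end and Olfml3 and Plekha7 at the lower end.

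Epas1, which encodes the hypoxia-responsive transcription factor HIF-2α, had the largest rise among genes of at least 5 CPM. It was at 14.6 and 12.02 CPM in Control and 92.3 and 87.1 CPM in Mir182mTg. The groups were far apart, with a 6.74-fold difference of the means and a log2 fold change of 2.74 ± 0.056 (SE, adjusted p = 1.76e-14). Of the 14 genes tested from a list of the hypoxia response, only Epas1 and Ankrd37 were called, both higher, beside a list median of 0.02 on the log2 scale. The shares over all genes were 3.32% higher and 3.07% lower. Ankrd37, an ankyrin repeat gene, was low throughout, at 1.28 and 1.97 CPM in Control and 3.54 and 4.55 CPM in Mir182mTg. Expressed per length in replicate 1, Epas1 rose from 2.73 to 17.2 RPKM.

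A pair of the signalling family of semaphorins also rose. Plxnd1, a plexin receptor for semaphorins, was at 158 and 152 CPM in Control and 309 and 316 CPM in Mir182mTg, a log2 fold change of 1.001 ± 0.031 (adjusted p = 6.34e-12). Sema3c, a secreted semaphorin, was at 6.58 and 6.24 CPM against 18.8 and 18.5 CPM (log2 fold change 1.53 ± 0.087, adjusted p = 5.05e-09). In both genes the replicates lay close together and the groups did not overlap. Plxnd1 lies on chromosome 6 (chr6, start 115954811), the chromosome of Gt(ROSA)26Sor, and within 10 Mb of that locus 11 of the 88 genes tested were called higher and 2 lower, 14.8% in all. Around the endogenous Mir182 gene the counts were 4 and 1 of 70 (7.14%), and around Lyz2 2 and 2 of 66 (6.06%). Of all placed genes 6.39% were called.

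The other genes with the largest rises were Ngp, H2-T10, Tmem181b-ps, Chil3, Abhd1, Treml1, A930005H10Rik, S100a8, Gt(ROSA)26Sor and Slc38a6, with log2 fold changes from 1.87 for Ngp to 1.21 for Slc38a6. H2-T10, a non-classical MHC class I gene annotated as a polymorphic pseudogene, and Tmem181b-ps, a pseudogene, have near-identical relatives. Their reads can therefore be split between copies, and their values are uncertain. H2-T10 was at 3.46 ± 1.37 CPM in Control and 11.9 ± 1.87 CPM in Mir182mTg (SD, n = 2). Slc38a6, an amino acid transporter, was at 22.5 and 25.5 CPM in Control and 56.3 and 54.96 CPM in Mir182mTg. Among abundant genes the largest gains in CPM were in Spp1, Ctsl, Serinc3, Itgam, Hmox1, Mmp12, Plxnd1 and Malat1. Spp1, the secreted matrix protein osteopontin, was at 1595 and 1739 CPM in Control and 2281 and 2424 CPM in Mir182mTg, a log2 fold change of 0.49 ± 0.026. Serinc3, a membrane protein, was at 627 ± 9.89 CPM in Control and 956 ± 4.31 CPM in Mir182mTg (SD, n = 2), the widest fold of these after Plxnd1. Malat1, a nuclear non-coding RNA, differed more between replicates than between genotypes, with 739 and 428 CPM in Control and 882 and 571 CPM in Mir182mTg.

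On the lower side, Plekha7 and Olfml3 stood apart. Plekha7, an adherens junction protein, was at 8.68 and 8.92 CPM in Control and 0.635 and 0.716 CPM in Mir182mTg, 13.02-fold lower in the mean (log2 fold change -3.71 ± 0.17, adjusted p = 5.97e-10). Olfml3, a secreted olfactomedin-like glycoprotein, was at 81.7 and 72.9 CPM in Control and 6.84 and 6.09 CPM in Mir182mTg (log2 fold change -3.59 ± 0.062, adjusted p = 2.84e-15). Both genes were far below both Control libraries in each Mir182mTg library. Next came Jazf1, a zinc finger gene described with the targets, then Sh3d19, an adaptor protein with SH3 domains, and Anxa9, an annexin. Sh3d19 was at 14.3 and 13.001 CPM in Control and 3.36 and 3.47 CPM in Mir182mTg. Anxa9 was at 9.58 and 8.16 CPM in Control and 2.39 and 2.54 CPM in Mir182mTg. Neither gene's groups overlapped.

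The list of the largest falls went on with Rps2, Smo, Zbp1, Vangl1, Gdpd3, Pmepa1 and Jrk, with log2 fold changes from -1.80 to -1.16. Rps2, a ribosomal protein gene with many processed copies, was at 86.2 and 74.98 CPM in Control and 19.4 and 27.9 CPM in Mir182mTg, and its reads can be split between the copies. It was the only gene called of 24 ribosomal protein genes tested, beside 3.07% of all genes called lower and 3.32% higher, and the median of that list was -0.04. Smo, the signal transducer of the Hedgehog pathway, was at 6.06 ± 0.673 CPM in Control and 2.24 ± 0.0349 CPM in Mir182mTg (SD, n = 2). Vangl1, a planar cell polarity protein, was at 7.496 ± 1.41 CPM and 3.13 ± 0.231 CPM. Pmepa1, an inhibitor of TGF-β signalling, was at 28.9 and 21.4 CPM in Control and 13.1 and 8.63 CPM in Mir182mTg, so that its groups did not overlap although its replicates differed. Among abundant genes the largest losses in CPM were in Rn45s, Ctss, Cd36, Itga6, Msr1, Apoe, Ccr2 and Ctsc. Rn45s differed far more between replicates than between genotypes. Its groups overlapped, with 989 and 15399.9 CPM in Control and 854 and 11571 CPM in Mir182mTg. Itga6, the integrin α6 chain, was at 801 and 789 CPM in Control and 475 and 481 CPM in Mir182mTg, and Apoe, a lipid carrier, was at 311 and 285 CPM against 179 and 181 CPM.

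**Figure D2:**
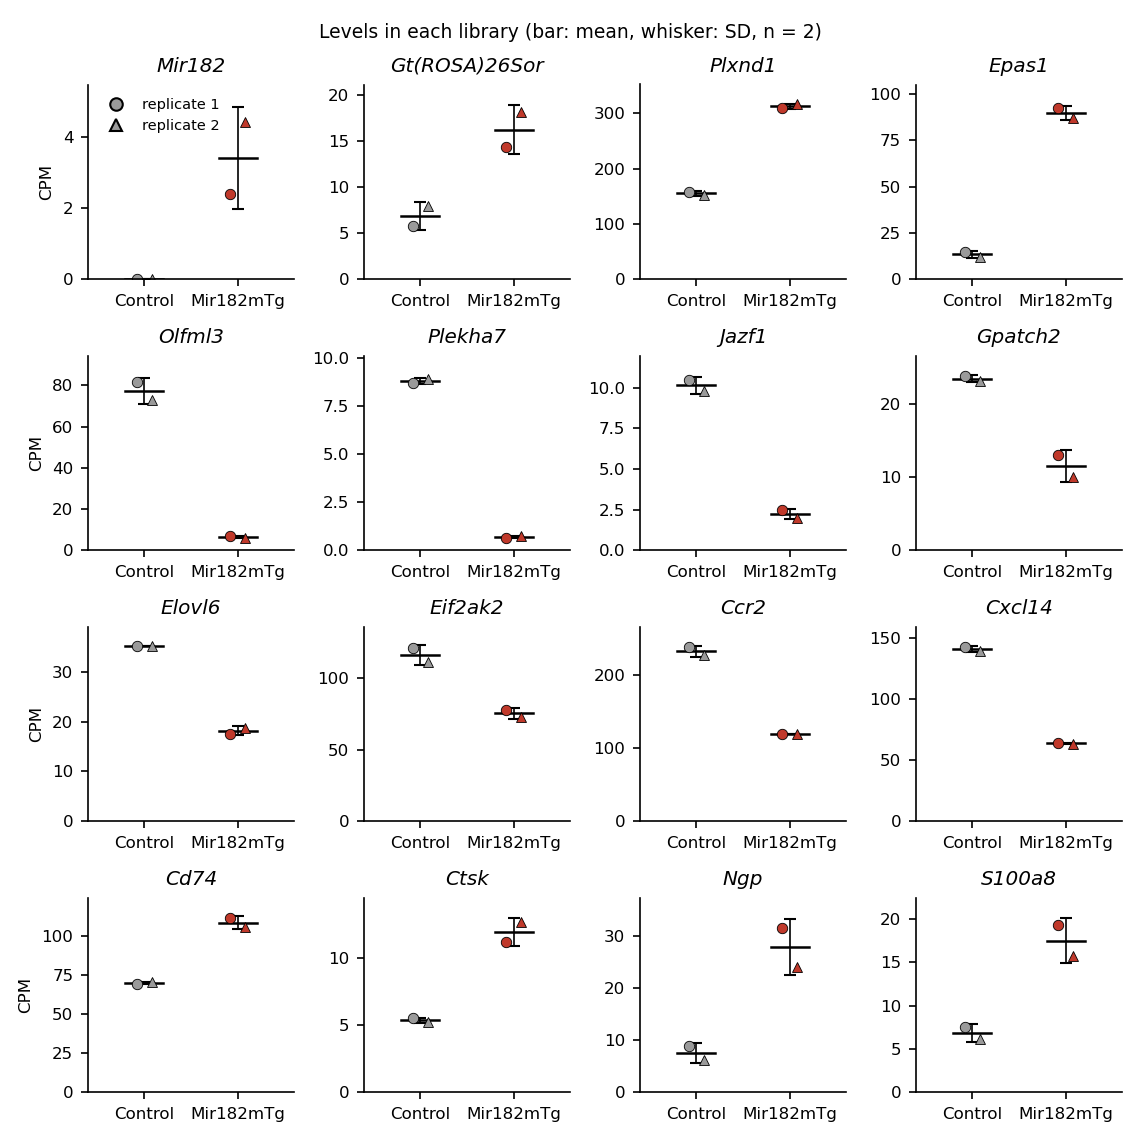
CPM (y axis from 0) of 16 genes in each Control (grey) and Mir182mTg (red) library; circles are replicate 1, triangles replicate 2, the bar is the mean and the whisker the SD of 2. In all 16 genes both Mir182mTg libraries lie on the same side of both Control libraries, above for Mir182, Gt(ROSA)26Sor, Plxnd1, Epas1, Cd74, Ctsk, Ngp and S100a8 and below for the other 8. All 16 were picked from the called genes, of which 386 of 401 higher and 335 of 371 lower did not overlap.

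Genes of the type I interferon response were lower in Mir182mTg cells as a group. All 38 genes of the list were tested, 18 were called lower and 0 higher, against 3.07% of all genes called lower. Their median log2 fold change was -0.29, beside -0.00 for all genes tested, and 36 of the 38 fitted values were below 0. With edgeR, DESeq2 or no block none was called higher, and 0 had an unadjusted p under 0.05 in that direction, while the 18 lower fell to 9 with DESeq2 and to 1 without the block. On the other chromosomes than 3 and 17, which are treated apart further on, 17 of 34 members were called lower.

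Zbp1, a sensor of Z-form nucleic acids that triggers cell death, fell most, from 10.3 and 9.599 CPM in Control to 4.02 and 3.87 CPM in Mir182mTg (log2 fold change -1.35 ± 0.11, adjusted p = 4.75e-07). Eif2ak2, which encodes PKR, the kinase that is activated by double-stranded RNA and phosphorylates eIF2α, was at 121 and 111 CPM against 77.9 and 72.6 CPM (log2 fold change -0.63 ± 0.036, adjusted p = 5.41e-09). Both genes were lower in each Mir182mTg library than in any Control library. Of the oligoadenylate synthetase family, whose enzymes activate RNase L or have lost that activity, the list members Oas3, Oasl1 and Oasl2 were called lower, and Oas1a and Oas2 passed the adjusted p but not the fold, at -0.24 ± 0.058 and -0.26 ± 0.043. Oas1g, which is not in the list and has close copies, was also called lower, at -1.03 on the log2 scale. Oas3 was at 87.3 and 91.2 CPM in Control and 62.8 and 61.2 CPM in Mir182mTg, and Oasl2 at 75.2 and 68.3 CPM against 49.3 and 45.3 CPM. The RNA sensor Ifih1, the ISG15 modifier Isg15 and its protease Usp18, the antiviral Rsad2, Cmpk2 and Rtp4, and Ifit1, Ifit2 and Ifit3 were also called lower, with Trim30a, Ifi204 and Slfn5.

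The transcription factors that carry the interferon signal behaved differently from one another. Irf7, which amplifies interferon production, was called lower, at 34.9 and 36.999 CPM in Control and 22.995 and 23.9 CPM in Mir182mTg (log2 fold change -0.62 ± 0.056, adjusted p = 1.1e-06). Stat2 had a log2 fold change of -0.04 ± 0.035 and Irf9 of -0.03 ± 0.041, and neither was called. Cxcl10 and Bst2, both interferon-induced, were the only members with a fitted value above 0, at 0.13 ± 0.095 and 0.04 ± 0.038, and were not called. Mx1 and Mx2, antiviral GTPases, had -0.33 ± 0.12 and -0.49 ± 0.17 and missed the threshold (adjusted p = 0.0927 and 0.0695). In the neighbouring list of MHC class I presentation 1 of 12 genes was called, the non-classical H2-T23, which was at 38.9 and 48.1 CPM in Control and 24.7 and 31.1 CPM in Mir182mTg. The list's median was -0.10, and 8 of its 12 genes lie on chromosomes 3 and 17. Over all genes 3.07% were called lower and 3.32% higher.

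The same interferon genes were read in the loss of function cells. There, WT cells were Mir182+/+ LysMcre(+) littermates and Mir182ΔM/ΔM cells were Mir182 flox/flox LysMcre(+), both grown for 3 days with M-CSF and labelled as unstimulated, with 2 replicates each and no library in common with the gain of function. The baselines of the 2 contrasts differed widely. Lyz2 was at 44.1 and 39.8 CPM in WT and 34.6 and 31.3 CPM in Mir182ΔM/ΔM cells, against 5783 and 6615 CPM in Control. Olfml3 was at 0.582 and 0.361 CPM in WT against 81.7 and 72.9 CPM in Control, and Apoe at 1794 and 1793 CPM against 311 and 285 CPM. The cause was not tested. Of the 38 genes, 37 were called higher in Mir182ΔM/ΔM cells (limma on log2(CPM + 1)), where 8.78% of all genes were called higher and 5.06% lower, and 1, Ifi44, was called lower. All 18 genes called lower in Mir182mTg were among the 37, an overlap that was nearly fixed since only Ifi44 lay outside them. Eif2ak2 was at 121 and 103 CPM in WT and 171 and 157 CPM in Mir182ΔM/ΔM cells, and Zbp1 at 21.7 and 18.9 CPM against 53.5 and 52.3 CPM. The median log2 fold change of the list was 0.91 in that contrast, larger in size than the -0.29 of the gain of function. The contrasts were fitted on different scales, and the difference in size was not tested.

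**Figure D3:**
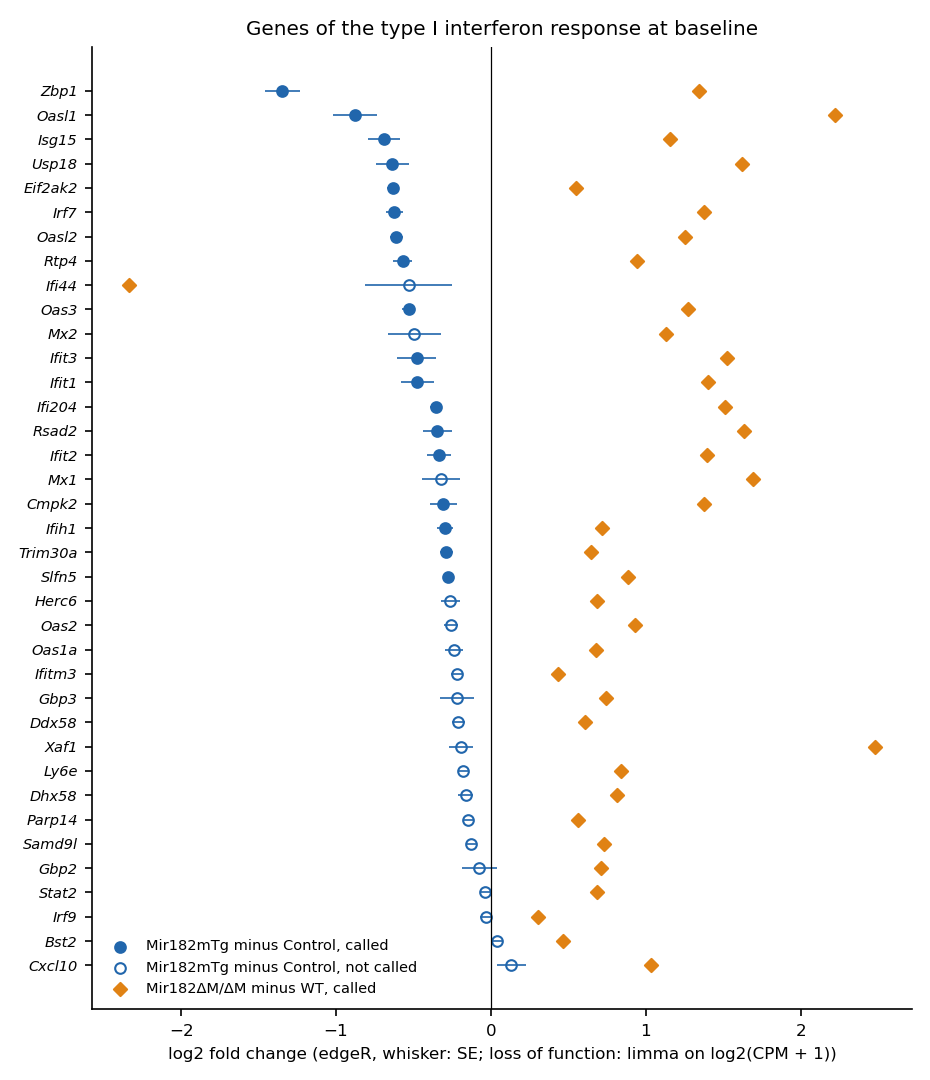
Log2 fold changes (x axis) of genes of the type I interferon list (rows, with 1 member not shown, in order of the gain of function value); blue circles are Mir182mTg minus Control by edgeR with the SE as whisker, filled where called, and orange diamonds are Mir182ΔM/ΔM minus WT at baseline by limma, all called. The circles lie below 0 for all genes shown but Bst2 and Cxcl10, and the diamonds above 0 for all genes shown but Ifi44.

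Over all called genes, 345 of the 371 genes lower in Mir182mTg were tested in the loss of function, and 92 of them (26.7%) were called higher in Mir182ΔM/ΔM cells and 26 (7.54%) lower. Among all genes of both fits, 8.71% were called higher and 4.98% lower. Of the genes higher in Mir182mTg, 340 were tested, of which 67 (19.7%) were called lower and 49 (14.4%) higher in Mir182ΔM/ΔM cells. The shares were thus above those of all genes in either direction. Plekha7 was the extreme of the opposed genes, at 0.306 and 0.803 CPM in WT and 13.5 and 15.03 CPM in Mir182ΔM/ΔM cells. Smo, Vangl1 and Anxa9 were also called higher there, whereas Sh3d19, Gdpd3 and Pmepa1 were not called, and Epas1 and Ccr2 had log2 fold changes of 0.26 and -0.03 and were not called. Sema3c and A930005H10Rik were opposed in the other direction, with -0.90 and -0.96 in the loss of function. Some genes rose in both contrasts. Plxnd1, Mmp12, Bhlhe40 and Ctsk were called higher in Mir182ΔM/ΔM cells too, at 0.44, 0.46, 0.52 and 0.43. The 92 genes numbered 3 without the replicate block in both fits.

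Of the reported targets of miR-182, a list of 18 genes, 17 were tested, 6 were called lower and 1 higher, with a median of -0.06. Among all genes, 3.07% were called lower and 3.32% higher. Off chromosomes 3 and 17 the counts were 4 lower and 0 higher of 13, since Elovl6 and Fbxw7 lie on chromosome 3 and Eif2ak2 on chromosome 17. The lower genes were Jazf1, Gpatch2, Elovl6, Eif2ak2, Rasa1 and Clock. The first 4 were picked by the study from the libraries of both contrasts, so their direction in either is not independent evidence. Jazf1, a zinc finger cofactor of nuclear receptors, was at 10.5 and 9.79 CPM in Control and 2.45 and 2.01 CPM in Mir182mTg (log2 fold change -2.19 ± 0.13, adjusted p = 8.33e-09). Gpatch2, a G-patch domain protein, was at 23.8 and 23.1 CPM against 13.04 and 9.99 CPM (log2 fold change -1.03 ± 0.084). Elovl6, an elongase of long-chain fatty acids, was at 35.2 and 35.1 CPM against 17.5 and 18.8 CPM (log2 fold change -0.97 ± 0.06). In each of the 3 genes the Mir182mTg libraries lay below both Control libraries, and all 3 were called higher in Mir182ΔM/ΔM cells. The study picked the 4 genes for a rise in the loss of function as well as a fall in the gain of function, so neither direction is a separate reading.

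Rasa1, a GTPase activating protein of RAS, was at 216 and 176 CPM in Control and 155 and 129 CPM in Mir182mTg (log2 fold change -0.48 ± 0.032, adjusted p = 3.63e-08). Clock, a transcription factor of the circadian clock, was -0.34 ± 0.043 on the log2 scale. Neither was called in the loss of function, with -0.08 and -0.02. Fbxw7, a ubiquitin ligase subunit, was the gene called higher, at 0.35 ± 0.061. The remaining targets were not called: Foxo3, a transcription factor restrained by AKT, had -0.15 ± 0.053 (adjusted p = 0.0778) and Foxo1 0.04 ± 0.07, and Mitf, Cyld, Smad4, Pdcd4, Mtss1, Rev1, Brca1 and Maml1 lay between -0.09 and 0.15. Of 19 genes of the AKT and FoxO pathway none was called, with edgeR or with DESeq2, 7 had an unadjusted p under 0.05, and the median was -0.03.

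Sites for the seed were looked up in the annotated 3′ UTRs of 11159 of the tested genes (GENCODE vM21 on GRCm38), on the transcribed strand only. A site of 8 bases, TTGCCAAA, pairs with bases 2 to 8 and has an A after them, and the shorter sites of 7 bases, TTGCCAA and TGCCAAA, pair with bases 2 to 8 or with bases 2 to 7 followed by the A. A gene was put in the class of its longest site. Of 599 genes with an 8-base site, 40 (6.68%) were called lower and 19 (3.17%) higher, against 252 (2.85%) and 291 (3.29%) of 8839 genes with no site. The shorter classes did not stand apart: with bases 2 to 8 only, 26 of 821 genes were lower and 23 higher, and with bases 2 to 7 and the A, 26 of 900 were lower and 31 higher. The shift of the whole 8-base class was small, with a median log2 fold change of -0.03 beside 0.00 with no site.

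Genes with a site had longer 3′ UTRs, with a median of 2585 bases in the 8-base class and 945 with no site. Among genes with a 3′ UTR of at least 1000 bases, 31 of 527 with an 8-base site (5.88%) and 108 of 4233 with none (2.55%) were lower. Without chromosomes 3 and 17, 33 of 546 (6.04%) and 188 of 7928 (2.37%) were lower. All 40 lower genes with an 8-base site were tested in the loss of function, where 6 were called higher and 7 lower. The shares were 8.71% and 4.98% among all genes of both fits. Among all genes lower in Mir182mTg they were 26.7% and 7.54%. A site here is a match of letters and not a measured contact.

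Sites of some of the lower genes that the results name, the called reported targets and a few genes with an 8-base site, are printed with the matching bases in capitals, on the strand of the gene, because they show which class of match each gene has. Plekha7, Ifit1 and Cebpa were picked for an 8-base site, so their class was fixed by the choice. Plekha7 is at chr7:116123625-116123650, Gpatch2 at chr1:187234287-187234312, Rasa1 at chr13:85216019-85216044 and chr13:85215754-85215779, Clock at chr5:76216431-76216456 and chr5:76210387-76210412, Ifit1 at chr19:34649190-34649215, Cebpa at chr7:35121514-35121539, Jazf1 at chr6:52769284-52769308 and chr6:52769261-52769285, and Eif2ak2 at chr17:78852616-78852640, all on GRCm38. Plekha7, Rasa1, Clock, Jazf1 and Eif2ak2 are on the minus strand and the others on the plus strand.
Plekha7: tcatgacatTTGCCAAAataagattt
Gpatch2: ttgcttgctTTGCCAAAtgctaacta
Rasa1, site 1: cctttgctcTTGCCAAAaagaaaaaa
Rasa1, site 2: tatatccaaTTGCCAAAgttttgctg
Clock, site 1: aagagtataTTGCCAAAtgctaacaa
Clock, site 2: tttacccctTTGCCAAAactagaaat
Ifit1: aaaaagtctTTGCCAAAgaaggtatt
Cebpa: ctctgattcTTGCCAAActgagactc
Jazf1, site 1: agttctctaTTGCCAAcaattttgt
Jazf1, site 2: gtttagacgTTGCCAAttcttgcaa
Eif2ak2: cgaggcttcTGCCAAAtcttccctg
Gpatch2 has the 8-base match, Jazf1 a pair of matches to bases 2 to 8, Eif2ak2 1 match to bases 2 to 7 with the A, at base 2508 of a 3′ UTR of 2575 bases, and Elovl6 no match of 7 bases in its annotated 3′ UTRs. Other lower genes with an 8-base site, named here for that site after their values were seen, include Arf4, a small GTPase of vesicle traffic (log2 fold change -0.61), Zfp36l1, an RNA decay factor (-0.51), and Vamp3, a vesicle SNARE (-0.40). The site is not confined to lower genes. Epas1, which had the largest rise among genes of at least 5 CPM, has 1 too, and 19 genes with an 8-base site were called higher.

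Osteoclast genes were read in cells labelled as unstimulated. Of 24 genes in the list 20 were tested, 6 were called higher and 1 lower, and the median log2 fold change was 0.11. Over all genes 3.32% were called higher and 3.07% lower. The higher genes were Ctsk, Src, Atp6v0d2, Itgb3, Acp5 and Jdp2. Ctsk, the cathepsin that degrades bone collagen, was at 5.52 and 5.25 CPM in Control and 11.3 and 12.7 CPM in Mir182mTg (log2 fold change 1.14 ± 0.10, adjusted p = 1.55e-06). Atp6v0d2, a proton pump subunit needed for cell fusion, was at 27.1 and 22.7 CPM against 42.8 and 32.01 CPM (log2 fold change 0.58 ± 0.059). Both genes' groups did not overlap, but Atp6v0d2 varied between replicates as well. In the loss of function Ctsk was called higher too, at 0.43, so it rose in both contrasts. Of 18 list genes tested there, 2 were called higher and 2 lower, against 8.78% and 5.06% of all genes.

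Acp5, which encodes TRAP, had a log2 fold change of 0.47 ± 0.085 (adjusted p = 0.00116), the integrin β3 gene Itgb3 of 0.50 ± 0.10, the AP-1 factor Jdp2 of 0.44 ± 0.079 and the kinase Src of 0.79 ± 0.16. Clcn7, a lysosomal chloride channel on chromosome 17, was called lower at -0.41 ± 0.034. Other regulators and receptors in the list than Jdp2, given here by example, were not called: Nfatc1, its master transcription factor, had 0.07 ± 0.037 (adjusted p = 0.219), Prdm1, which represses inhibitors, 0.18 ± 0.096, Tnfrsf11a, the receptor of RANKL, -0.13 ± 0.031 and Csf1r, the receptor of M-CSF, -0.06 ± 0.026. Calcr was at 0 in all 4 libraries, and Car2, Oscar and Ocstamp were under the filter on low counts. Of 14 inhibitors of osteoclast formation, Id2 and Egr2 were called higher and none lower by edgeR, and Irf8 had -0.06 ± 0.033. The shares over all genes were again 3.32% higher and 3.07% lower. Without the block no osteoclast gene was called and with DESeq2 2 were higher; without chromosomes 3 and 17, 5 of 17 were higher and 0 lower, and without Control replicate 2 the lower genes were 2.

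Most MHC class II and costimulatory genes tested rose. Of 12 genes of class II presentation and costimulation, all tested, 7 were called higher and 0 lower, and the median log2 fold change was 0.45. Among all genes, 3.32% were called higher and 3.07% lower. Cd74, the invariant chain, was at 69.4 and 70.4 CPM in Control and 112 and 105 CPM in Mir182mTg (log2 fold change 0.63 ± 0.04, adjusted p = 1.98e-08). The class II chains H2-Aa, H2-Ab1 and H2-Eb1 had log2 fold changes of 0.55 ± 0.059, 0.48 ± 0.067 and 0.49 ± 0.073, and the costimulatory genes Cd80, Cd86 and Cd40 of 0.58 ± 0.089, 0.42 ± 0.13 and 0.38 ± 0.10. Ciita, the transactivator of class II, had 0.56 ± 0.18 and missed the threshold (adjusted p = 0.0542), and Cd274, which encodes PD-L1, had -0.07 ± 0.062. The H2 genes lie on chromosome 17, and without chromosomes 3 and 17 the count was 4 of 7. It was 4 with DESeq2 and 0 without the block. Markers of dendritic cells, which carry class II, summed to 1.596 and 1.85 CPM in Control and 2.03 and 2.83 CPM in Mir182mTg over 7 genes, all under 1 CPM. Markers of B cells summed to 3.16 and 3.63 CPM against 5.14 and 6.95 CPM over 8 genes, of which Jchain was called higher and Pax5 was at 0. Their part in the rise was not tested.

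Markers of neutrophils and their precursors were higher in Mir182mTg. Of 11 markers 9 were tested and all 9 were called higher, with a median log2 fold change of 1.35. Among all genes 3.32% were called higher. Camp was so low in Control that it passed the filter on low counts only through Mir182mTg, so its direction was fixed. Ngp, a neutrophil granule protein, was at 8.97 and 6.16 CPM in Control and 31.7 and 24.2 CPM in Mir182mTg (log2 fold change 1.87 ± 0.077, adjusted p = 1.51e-10). S100a8, a subunit of calprotectin, was at 7.57 and 6.12 CPM against 19.3 and 15.7 CPM, and its partner S100a9 at 8.46 and 10.5 CPM against 19.1 and 21.7 CPM. Both libraries of Mir182mTg lay above both of Control in each of the 3 genes. Mpo and Elane, granule enzymes of early precursors, rose by less, 0.67 ± 0.061 and 0.70 ± 0.11, than Ltf and Camp, of later granules, 2.40 ± 0.22 and 3.51 ± 0.49, the last from 2 and 3 reads in Control. The difference was not tested. In the loss of function, Mpo and Elane were called higher too, with 0.66 and 0.48.

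The whole list summed to 53.3 and 53.6 CPM in Control and 123 and 114 CPM in Mir182mTg. The 11 macrophage markers summed to 12856 and 13734 CPM against 13753 and 14393 CPM, with Itgam called higher and Fcgr1 lower. Chil3, a chitinase-like protein of macrophages and neutrophils, was at 4.37 and 5.82 CPM in Control and 14.6 and 17.4 CPM in Mir182mTg and moved with this list. Whether a larger share of granulocytes has a part in Chil3 or Itgam was not tested. The count was 7 of 7 without chromosomes 3 and 17, 6 with DESeq2 and 0 without the block.

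Some chemokine receptors and scavenger receptors fell. Of 8 chemokine receptors tested, 3 were called lower, among them Ccr2 and Ccr3, and Cxcr4 higher, with a median of -0.08. Among all genes, 3.07% were called lower and 3.32% higher. Ccr2, the receptor that brings monocytes into tissue, was at 238 and 227 CPM in Control and 119 and 119 CPM in Mir182mTg (log2 fold change -0.98 ± 0.032, adjusted p = 9.86e-12). Ccr3, its neighbour on chromosome 9, had -0.85 ± 0.14, while Ccr1, in the same cluster, had 0.07 ± 0.038 and was not called. Cxcr4, which retains cells in the marrow, had 0.31 ± 0.048. Of 16 chemokines only Cxcl14 was called, at 143 and 139.5 CPM in Control and 64.2 and 63.3 CPM in Mir182mTg (log2 fold change -1.16 ± 0.036, adjusted p = 6.34e-12).

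Of 14 scavenger and efferocytosis receptors, 4 were called lower and 0 higher, with a median of -0.12, against 3.07% and 3.32% of all genes. The 4 receptors were Siglec1, a sialic acid receptor that interferon induces, Colec12, a scavenger collectin, Cd36, a receptor of oxidised lipids, and Msr1, scavenger receptor A. Siglec1 was at 260.5 and 271 CPM in Control and 157 and 166 CPM in Mir182mTg, and Cd36 at 2596 and 2524 CPM against 1862 and 1887 CPM. Mrc1, the mannose receptor, had 0.24 ± 0.028, under the fold threshold. In the fit of 12 libraries without Mir182mTg replicate 1, 1 gene of the list was called higher.

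Few lipid genes were called, and most of those were lower, beside 3.07% of all genes called lower and 3.32% higher. Not called were 12 of 15 genes of fatty acid synthesis, 19 of 21 of cholesterol synthesis and 11 of 14 of efflux. Of 15 genes of fatty acid synthesis Elovl6, Scd1 and Fads2 were called lower, and Scd1, a desaturase, was at 6.23 and 4.61 CPM in Control and 3.66 and 3.51 CPM in Mir182mTg. Of 21 genes of cholesterol synthesis and uptake 2 were called lower, among them Insig1, which restrains the pathway, and 20 of the 21 fitted values were below 0 with a median of -0.10. Of 14 genes of cholesterol efflux and LXR targets tested, Apoe and Pltp, a phospholipid transfer protein, were called lower and Abcg1, a cholesterol exporter on chromosome 17, higher, with a median of 0.05. In that list 9 of the 14 fitted values were above 0. The Abcg1 call made the only higher gene of the 3 lists, and 2 efflux genes were higher in the fit of 12 libraries without Control replicate 1 or without Mir182mTg replicate 1, and 1 lower without Mir182mTg replicate 2. Of 16 inflammatory cytokines and receptors tested, 5 were called higher, Il1rn, Il10, Il15, Il16 and Tnfsf9, and 0 lower, with a median of 0.18, against 3.32% and 3.07% of all genes. The count of higher cytokine genes fell to 3 in the fit of 12 libraries without Control replicate 1 or without Mir182mTg replicate 1, and to 1 with DESeq2. Il1rn, the antagonist of interleukin 1, was at 20.3 and 16.2 CPM in Control and 24.6 and 21.2 CPM in Mir182mTg.

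Genes of the p53 response, Gdf15, Zmat3 and Mdm2, were called higher among 12 tested, and Cdkn2c, an inhibitor of CDK4 and CDK6, lower. The shares over all genes were 3.32% higher and 3.07% lower. Gdf15, a stress cytokine, was at 10.02 and 9.83 CPM in Control and 15.9 and 20.8 CPM in Mir182mTg. The call on Cdkn2c was lost in the fit of 12 libraries without Control replicate 1 or without Mir182mTg replicate 1. Hmox1, the haem-degrading enzyme, rose from 966 and 937 CPM to 1233 and 1163 CPM. Among 18 transcription factors of macrophages Bhlhe40 and Bhlhe41 were called higher and Cebpa and Cebpb lower. Bhlhe40, a repressor of the clock family, was at 40.2 and 35.6 CPM in Control and 59.6 and 57.3 CPM in Mir182mTg. In the fit of 12 libraries neither Cebpa nor Cebpb was called without Control replicate 1, 4 genes were lower without Control replicate 2, and 1 was higher without Control replicate 2 or without Mir182mTg replicate 1.

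Several lists gave no call with edgeR and the block, nor with DESeq2. They were 25 genes of Toll-like receptors and NF-kB (median log2 fold change 0.01, 11 genes with an unadjusted p under 0.05), 24 of oxidative phosphorylation (-0.02, 4 genes), 24 of mitosis (-0.06, 10 genes), 16 regulators of apoptosis (0.04, 3 genes) and 12 of miRNA processing (0.00, 4 genes). Where a list had 0 calls in one direction only, DESeq2 also gave 0 there, and the genes with an unadjusted p under 0.05 in that direction by edgeR numbered 0 lower for MHC class II, 0 lower for the neutrophil markers, 1 higher for the scavenger receptors, 1 lower for the cytokines, 0 higher for cholesterol synthesis, 1 higher for fatty acid synthesis and 4 lower for the inhibitors of osteoclast formation. In the mitosis list 23 of 24 fitted values were below 0, each under the fold threshold with the lowest at -0.23. Ago2, the slicing Argonaute, had a log2 fold change of 0.00 ± 0.037.

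**Figure D4:**
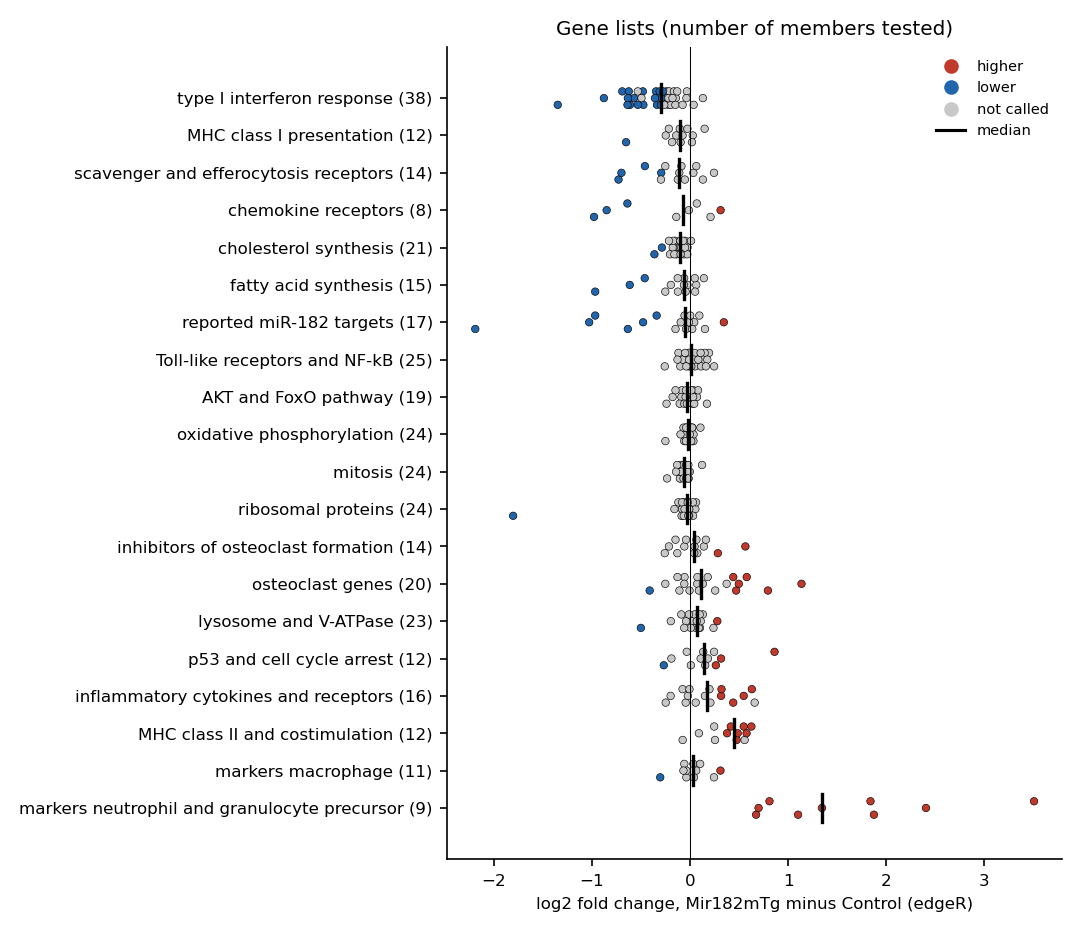
Log2 fold changes of Mir182mTg minus Control by edgeR (x axis) for the tested members of 20 gene lists (rows, number tested in brackets); each point is 1 gene, red where called higher, blue where called lower and grey where not called, and the black bar is the list's median. The interferon list has its median at -0.29 and MHC class II at 0.45, the 9 neutrophil markers all lie above 0, and the lists with no call stay near 0.

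The called genes were not spread evenly over the genome. On chromosome 3, 37 genes were called higher and 42 lower of 556 tested (14.2%), and on chromosome 17, 41 and 43 of 615 (13.7%), against 6.39% of the 11634 placed genes. The other autosomes and X ran from 2.84% on chromosome 18 to 8.39% on chromosome 6. In the loss of function contrast, over those of these genes that it also tested, 15.7% of 492 were called on chromosome 3 and 12.3% of 554 on chromosome 17. The share of all placed genes there was 13.6%, and the autosomes and X ranged from 9.91% to 17%. Of the 12 largest rises named above 7 lie on these chromosomes, and of the 12 largest falls 5. Epas1 and Rps2 lie on chromosome 17, and Olfml3, Sh3d19, Anxa9 and Vangl1 on chromosome 3. In windows of 10 Mb the share was 24.3% of 103 genes at chr3:90000001-100000000, which holds Ctsk, Ctss, S100a8, S100a9, Anxa9 and Fcgr1, and 35.5% of 31 genes at chr17:1-10000000, which holds Tmem181b-ps. In the loss of function these windows had 14.1% of 92 and 11.1% of 27 genes called. At chr3:120000001-130000000 the share was 32.1% of 28 genes, and 48% of 25 in the loss of function. At chr3:110000001-120000000 it was 25% of 20, and 33.3% of 18 in the loss of function. In the window at chr3:90000001-100000000, Ctsk rose and its neighbour Ctss, another cathepsin, fell, from 2512 and 2263 CPM to 1770.3 and 1627 CPM.

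Low genes of these chromosomes, named after their values were seen, included Cd1d2 and Tiam2. Cd1d2, an MHC-like gene annotated as a polymorphic pseudogene, had 1 and 0 reads in Control and 20 and 24 reads in Mir182mTg. Tiam2, a guanine nucleotide exchange factor, had 76 and 65 reads in Control and 14 and 6 reads in Mir182mTg. Cd1d2 passed the filter on low counts only through Mir182mTg and Tiam2 only through Control, so their directions were fixed. Of 15 genes known to differ between mouse strains or substrains, 11 were tested, Trim12a and Akr1e1 were called higher and Ide and Trim34b lower. Among all genes, 3.32% were called higher and 3.07% lower. Trim34b was at 1.21 and 0.6803 CPM in Control and 0.121 and 0.0358 CPM in Mir182mTg, and Trim12a, its neighbour on chromosome 7, at 7.12 and 7.14 CPM against 12.7 and 12.1 CPM. Trim34b passed the filter on low counts only through Control, so its direction was fixed. Trim12a had -3.80 on the log2 scale in the loss of function. Both belong to a family of close copies, so their reads can be split. Nnt, which carries a deletion in the C57BL/6J substrain, had a log2 fold change of -0.01 ± 0.046. Without chromosomes 3 and 17, 308 genes were higher and 272 lower among 10463 placed genes, 5.54%. Whether the mice differed in sequence around these genes was not tested.

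**Figure D5:**
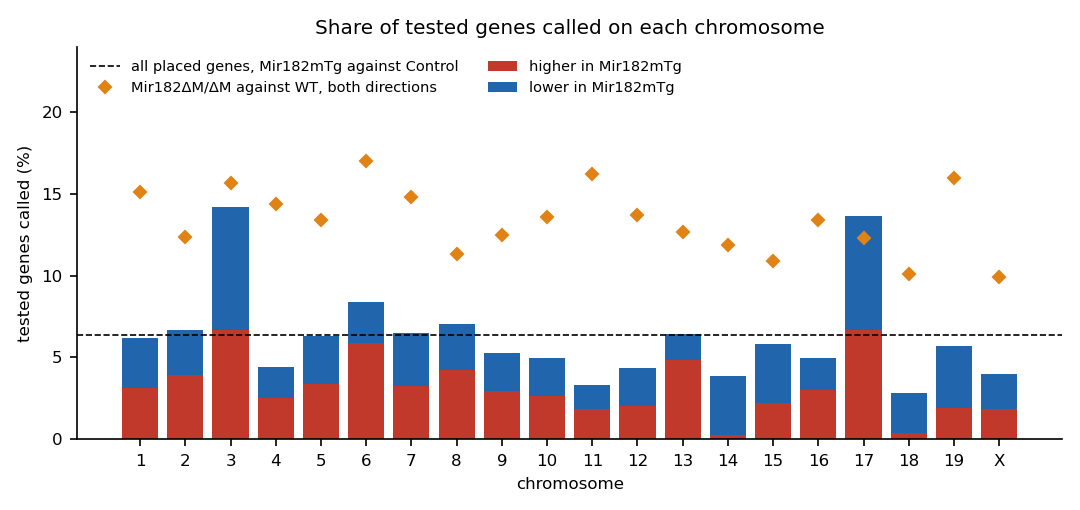
Percent of tested genes called on each chromosome (x axis) in Mir182mTg against Control, higher in red and lower in blue, stacked from 0. The dashed line is the share of all placed genes, and orange diamonds give Mir182ΔM/ΔM against WT at baseline, over those of these genes tested there. Chromosomes 3 and 17 stand at 14.2% and 13.7% above the line at 6.39%, while their diamonds lie within the range of the other chromosomes.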

How the data were processed

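RNA-seq of BMMs was analysed at the level of gene reads. The authors deposited raw counts of reads per gene for the 4 gain of function libraries, and CPM for the 8 loss of function libraries. RPKM values for replicate 1 were also deposited by the authors, and were used only for the level of Epas1 and the length of Mir182. The submitters' processing notes name TopHat, Cufflinks, HISAT2, HTSeq and edgeR, without versions, and the strand setting of the counting is not given in the sources used here. Reads of overlapping or antisense genes can therefore not be told apart. No columns of the authors' own comparisons were used.

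Counts were tested with edgeR 4.0.16 in R 4.3.3, with TMM factors, the filter of filterByExpr, and the quasi-likelihood test with the replicate number as a block, which leaves 1 residual degree of freedom. Benjamini-Hochberg adjustment covered all 12081 genes tested, and every adjusted p of Mir182mTg against Control is from this test. The loss of function CPM were tested with limma 3.58.1 on log2(CPM + 1) for genes of at least 1 CPM in at least 2 libraries, a scale that understates the change of low genes. All of these CPM values were whole multiples of 1 read within 0.01 reads (100%), and edgeR on the recovered reads called 992 higher and 659 lower genes where limma called 970 and 559. DESeq2 1.42.0 was an alternative, and the edgeR and DESeq2 steps were tested on simulated data. The replicate number pairs the libraries because it marks the RNA type and the aligner in the labels and processing notes.

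The named genes were, among called genes with the same sign in both pairs and a mean of at least 5 CPM in the higher group, the 12 of largest fold and the 8 of largest CPM difference in each direction, up to 4 called members of each list in order of p, the genes of the design, and the 4 target genes of the study. Other list members were named to complete a list's account. Members, lists and tests were chosen with earlier results of these data known. By name, 23376 of 24421 genes were found in GENCODE vM21. Figures were drawn with matplotlib 3.10.9. Alternatives were other normalizations, filters, tests and fold thresholds, no block, and leaving out each library. A few members of the lists are counted but not reported here by name.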

Additional observations from a re-analysis of the deposited data

How the results depend on the processing

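The counts of called genes, 401 higher and 371 lower, rested most on the replicate block. Without the block they were 12 and 19, with the edgeR exact test and no block 130 and 130, and with DESeq2 and the block 146 and 168. With no fold threshold they were 838 and 984, and with a fold of at least 1.5 they were 167 and 131. In fits of 3 libraries with no block, where the lone library is assumed to vary like the others, the counts were 49 and 52 without Control replicate 1, 85 and 81 without Control replicate 2, 43 and 37 without Mir182mTg replicate 1, and 31 and 24 without Mir182mTg replicate 2. Leaving out each library in turn gave 272 to 359 higher and 286 to 349 lower genes in the fit of all 12 libraries with the block. The counts moved by less than 1.5 times with library totals, upper-quartile normalization, no filter, a mean of at least 1 CPM and the fit of all 12 libraries. The 92 genes lower in Mir182mTg and higher in Mir182ΔM/ΔM cells were 3 with no replicate block in both fits and 367 with no fold threshold, and 78 to 93 when each library was left out. The cause of these shifts was not tested. Of 106 named called genes none changed sign, and the adjusted p was lost in 88 with no block, in 44 with the exact test, in 19 with DESeq2, in 6 with no filter and in 5 to 11 when 1 library was left out. Without the genes of chromosomes 3 and 17, a setting chosen after seeing the data, 323 genes were higher and 286 lower. With 2 libraries a group, small changes and genes of few reads could not be resolved.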
